A study of Mus musculus
Mus spretus with 18 samples.

Results

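The RNA binding motif (Rbm) genes were chosen by name, as the autosomal genes whose symbol is Rbm followed by a digit, without Rbm20. The expression table holds 34 such gene identifiers with 33 symbols among 38924 genes, since Rbm15b is listed under 2 identifiers, and 5 further Rbm rows were left out, Rbm20 and those on the X or Y chromosome. All 34 identifiers were among the 20589 genes tested for expression. The tables of skipped exons (SE) list 184 events of these genes in tissues and 178 in fibroblasts, of which 88 of 35134 and 79 of 21472 events could be tested, and the table of retained introns (RI) lists 4, of which 3 could be tested.

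Most Rbm proteins bind RNA through the RNA recognition motif, and the shared name does not mean a shared function. Some are parts or helpers of the spliceosome, and others deposit marks on RNA, lead RNA to the nuclear exosome, build ribosomes, or steer splicing and mRNA stability in muscle, brain, epithelia or germ cells. Many genes of splicing factors are themselves alternatively spliced, and skipping or inclusion of an exon in such a gene can decide whether a protein is made.

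The libraries were strand-specific mRNA libraries from F1 hybrids of a C57BL/6J mother and a SPRET/EiJ (M. spretus) father, so every library holds both alleles. Cerebral cortex, heart, kidney, lung, spleen and liver came from 2 female animals aged 8 weeks, and the 2 replicates of the embryonic stem cells (ESC) were separate clones cultured with 2i and LIF. The liver libraries come from an earlier study of the same animals, and their labels give the mother's strain as C57BL/7J and C57BL/8J, names that differ from the C57BL/6J of all other libraries. Fibroblasts derived from the F1 mice were treated for 4 h with 0.1 μM pladienolide B (PladB), which binds the SF3B complex of the spliceosome and blocks recognition of the branch site, or with DMSO, with 2 libraries each. The sources used here do not say that the fibroblast libraries came from separate lines or cultures, so that p-values may measure technical spread. Inclusion is given as percent spliced in (PSI) on a scale from 0 to 1, and expression as TPM, a transcript abundance scaled by gene length and by the library's total.

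The defining markers went with the labels. The summed TPM of the 3 markers of each group was at least 1883 (spleen) in the group's own libraries and at most 1423 (liver markers in a cortex library, against at least 104174 in liver) in any library of another group. Junction reads over all SE events numbered 46558287 to 129496306 per library in tissues and 129067054 to 151755602 in fibroblasts. On the Rbm genes, they numbered 43432 and 52948 in the PladB libraries against 236926 and 237146 in the DMSO libraries, so that inclusion after PladB rests on fewer reads. Replicates correlated with r between 0.974 (ESC) and 0.997 on log2 TPM across genes, which are not independent replicates.

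Over the 7 tissues, the widest ranges were those of Rbm44, Rbm24, Rbm11, Rbm47, Rbm38 and Rbm46, whose highest tissue mean was at least 31.1 times the lowest (Rbm44 was listed at 0 in one tissue). For the other 28 identifiers this ratio ran from 3.81 (Rbm7) to 14.2 (Rbm26). The plot of levels in all libraries shows Rbm24, Rbm38, Rbm47, Rbm11 and Rbm44 with bright or dark cells in single tissues, while Rbm17 and Rbm39 were high throughout. The highest level of all was that of Rbm17, a splicing factor that takes part in early recognition of the 3′ splice site, with 204 and 175 TPM in ESC and 40.8 and 42.8 TPM in heart. The lowest was that of Rbm44, a germ cell protein, which was listed at 0 in both liver libraries.

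**Figure D1:**
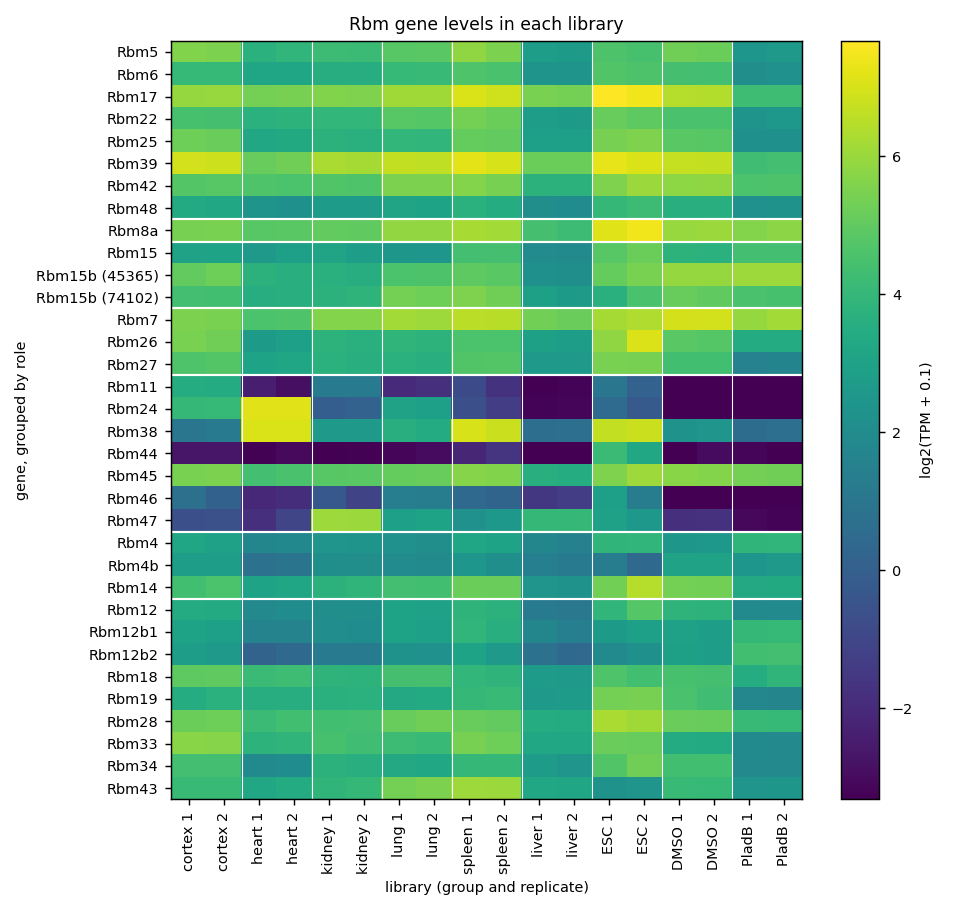
Heat map of log2(TPM + 0.1) for the 34 Rbm gene identifiers (vertical, grouped by role with white lines) in the 18 libraries (horizontal, by group and replicate), where brighter cells are higher; the 2 rows of Rbm15b carry the last digits of their identifiers. Rbm24 reaches 144.6 and 143.4 TPM in heart and is listed at 0 in every fibroblast library, while Rbm39 lies at 19.9 TPM or above in all libraries.

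Each tissue was compared with the mean of the other 6 by limma on log2(TPM + 0.1) over all genes, and a gene was called with an adjusted p below 0.05 and a difference of at least 1 on that scale. Rbm24, an RNA binding protein that steers splicing in heart and skeletal muscle, was at 144.6 and 143.4 TPM in heart. It was at 16.02 and 16.15 TPM in cortex, 7.86 and 7.34 in lung, 0.874 and 0.995 in kidney, 1.33 and 0.769 in ESC, 0.547 and 0.302 in spleen and 0.00629 and 0.0107 in liver. Both heart libraries lay above all others, by 6.67 ± 0.19 (SE) on the log2 scale against the mean of the other tissues (limma, adjusted p = 3.41e-11). Its calls ran in both directions, since Rbm24 was also higher in cortex (2.99) and lung (1.74), and lower in liver (-5.43), spleen (-2.83), kidney (-1.64) and ESC (-1.51).

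Rbm38, which binds mRNAs to control their stability and takes part in erythroid splicing, had 3 tissues of high level. It stood at 133 and 134 TPM in heart, 130 and 110 in spleen and 100 and 111 in ESC, but at 1.89 and 2.19 in cortex, 11.7 and 10.8 in lung, 5.97 and 5.91 in kidney and 1.47 and 1.51 in liver. The heart libraries lay above all others and the ranges of spleen and ESC overlapped. It was called higher in heart by 3.48 ± 0.08 (limma, adjusted p = 9.12e-12), in spleen by 3.30 and in ESC by 3.09, and lower in liver (-3.98 ± 0.08, limma, adjusted p = 7.45e-13), cortex (-3.48) and kidney (-1.73).

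Rbm47, a cofactor of Apobec1 in C-to-U editing of apolipoprotein B mRNA, was a gene of kidney and liver. It measured 66.1 and 65.1 TPM in kidney, 15.8 and 15.8 in liver, 7.19 and 8.16 in lung, 7.68 and 5.64 in ESC, 4.57 and 5.77 in spleen, 0.550 and 0.570 in cortex and 0.191 and 0.387 in heart. The kidney libraries were above every other tissue library and the heart libraries below every other one. It was higher in kidney by 4.36 ± 0.17 (limma, adjusted p = 6.41e-10) and in liver by 1.97, and lower in heart (-4.33) and cortex (-3.38).

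Rbm11, a splicing regulator known from brain and testis, was at 11.1 and 10.8 TPM in cortex, 2.16 and 2.23 in kidney and 1.88 and 1.00 in ESC, and at most 0.454 in the remaining tissue libraries. Both cortex libraries lay above all others, with a difference of 4.69 ± 0.23 (limma, adjusted p = 1.32e-09). Its other calls were smaller, higher in kidney (2.04) and ESC (1.30) and lower in liver (-3.16), heart (-2.43) and lung (-1.60). The kidney and lung calls were lost with a pseudocount of 1, as were those of Rbm24 and Rbm44 in lung.

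Rbm44 was at 17.9 and 9.67 TPM in the ESC clones and at most 0.224 TPM in any other tissue library. The difference of 6.62 ± 0.19 for ESC (limma, adjusted p = 1.81e-11) is on the log2(TPM + 0.1) scale and depends on the pseudocount, since Rbm44 was listed at 0 in the liver. Rbm46, another germ cell gene of this group, was at 7.25 and 2.33 TPM in ESC and was called higher there by 2.42, although its second ESC clone lay below both lung libraries (2.50 and 2.37). The clones also lay apart for Rbm26 (58.0 and 135 TPM) and Rbm14 (40.4 and 88.5 TPM).

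Rbm43 was at 67.0 and 65.3 TPM in spleen, 41.0 and 44.7 in lung and 4.99 and 5.22 in ESC, and between 8.95 and 17.4 in the other tissue libraries. The spleen libraries were the highest and the ESC libraries the lowest, with no overlap with other tissues. It was higher in spleen by 2.32 ± 0.07 (limma, adjusted p = 7.45e-11) and in lung by 1.59, and lower in ESC (-1.97). In these whole organs, fewer cells of a type and less RNA per cell cannot be told apart.

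Counted over the 34 identifiers, ESC had the most members called higher. In ESC, 19 were higher and 3 lower, where 35.8% of all genes were called higher and 25.5% lower, and the median member differed by 1.26 against 0.36 over all genes. In spleen 10 were higher and 1 lower (27% and 22.4% of all genes), in cortex 10 and 2 (34.9% and 20.7%), in lung 4 and 2 (26.5% and 15%), in kidney 2 and 3 (16.9% and 18.6%) and in heart 2 and 15 (12% and 37.7%). In liver 1 was higher and 29 lower, but 68.4% of all genes were lower there and 8.24% higher, and the median was -1.57 both over the members and over all genes.

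These counts depended on the scale. Centring each library on the median of expressed genes moved all differences by 1.29 in liver, -0.65 in ESC, 0.43 in heart, -0.40 in cortex, -0.36 in spleen and -0.25 in lung. The calls then became 12 higher and 3 lower in ESC, where 23.3% of all genes were higher and 35.5% lower when centred. They became 6 and 2 in spleen (20.2% and 28.5% of all genes), 2 and 3 in cortex (27.9% and 27%) and 4 and 3 in lung (22.4% and 19.1%). In kidney they were 2 and 3 (16.1% and 19.6%), in heart 2 and 6 (17.1% and 24.3%) and in liver 1 and 4 (17.3% and 27.8%). In liver, 5 members called lower turned to the other sign under centring (Rbm12b2, Rbm34, Rbm4, Rbm12b1 and Rbm48, with centred differences of 0.19 or less). The calls of Rbm24, Rbm38, Rbm47, Rbm11, Rbm44 and Rbm43 named above for their own tissues kept their direction.

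By role, the 8 measured splicing factors (Rbm5, Rbm6, Rbm17, Rbm22, Rbm25, Rbm39, Rbm42 and Rbm48) had 4 members higher in ESC (35.8% of all genes were), 2 in cortex (34.9%) and 2 in spleen (27%), and 2 lower in heart (37.7%) and 7 in liver (68.4%). Centred, 1 remained higher in ESC (Rbm17, with 23.3% of all genes higher) and 1 was higher in spleen (20.2%), and none was called in cortex, heart or liver. Rbm8a, a core protein of the exon junction complex, was at 141 and 171 TPM in ESC and at most 75.99 TPM in any other tissue library, 2.00 higher on the log2 scale. Of the 3 identifiers of the N6-methyladenosine writer group, Rbm15 and 1 identifier of Rbm15b were higher in ESC (35.8% of all genes), and 1 of them when centred (23.3%). In spleen 2 were also higher (27%), and 2 when centred (20.2%). In each of cortex (34.9%) and lung (26.5%) 1 was higher, and all 3 were lower in liver (68.4%). Centred, none was called in cortex, 1 was higher and 1 lower in lung, and 1 was lower in liver. Of the nuclear exosome adaptors Rbm7, Rbm26 and Rbm27, which lead nuclear RNA to decay, 2 were higher in ESC, 1 in cortex, and all 3 were lower in heart, where 37.7% of all genes were lower. Centred, 2 were higher in ESC (23.3% of all genes) and 1 was lower in heart (24.3%), and none was called in cortex (Rbm26, 0.95). The partners of these groups, 17 genes that are no members (U2AF and branch site factors, exon junction core, methyltransferase and exosome genes), had 13 members higher in ESC, 7 in spleen and 3 in cortex, and 5 lower in heart and 16 in liver, against the shares of all genes given above. Centred, 3 were higher in ESC (23.3% of all genes) and 1 was lower in each of cortex (27%) and heart (24.3%), and none was called in liver or spleen.

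After 4 h of PladB, most Rbm genes were lower in TPM. Of 34 identifiers, 24 were lower and 4 higher (limma, adjusted p below 0.05), where 49.5% of all genes were called lower and 6.88% higher, and the median member differed by -1.29 against -0.55 over all genes. TPM are shares of the total, and centring on the median of expressed genes moved each difference up by 1.33. On that scale 14 members were lower and 16 higher, where 24.1% of all genes were lower and 52.7% higher. Of the 16, Rbm11, Rbm24, Rbm44 and Rbm46 were at 0.024 TPM or less in every fibroblast library. In all, 8 called members turned from lower to a positive difference.

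All 8 splicing factors were lower as deposited. Rbm5, a splicing factor of early spliceosomes, went from 39.2 and 37.2 TPM with DMSO to 5.40 and 6.12 with PladB, a difference of -2.71 ± 0.11 (limma, adjusted p = 5.85e-10). Rbm25, which acts with the U1 particle on 5′ splice sites, went from 28.8 and 28.1 to 4.43 and 4.53 TPM (-2.64 ± 0.08, limma, adjusted p = 5.71e-11). Rbm39, a relative of U2AF, went from 103 and 100 to 19.9 and 21.0 TPM, and Rbm17 from 88.3 and 85.7 to 19.0 and 19.2 TPM. In each of these genes the PladB libraries lay below the DMSO libraries without overlap. After centring, Rbm5 and Rbm25 remained lower (-1.38 and -1.31), as did Rbm39, Rbm6, Rbm17 and Rbm22 (-0.98 to -0.74), but Rbm42 and Rbm48 stood at 0.08 and 0.00.

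Among the exosome adaptors, Rbm27 went from 20.3 and 20.3 to 2.83 and 3.02 TPM, by -2.75 ± 0.07 (limma, adjusted p = 3.24e-11), the largest fall of a member. Rbm26, its paralog, went from 28.5 and 27.2 to 10.9 and 10.8 TPM, and Rbm7 went from 127 and 122 to 61.0 and 71.0 TPM. Centred, Rbm27 was lower (-1.43), Rbm26 did not pass (-0.03) and Rbm7 had the other sign (0.41).

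Rbm19 and Rbm34 were also among the 5 largest falls. Rbm19, which takes part in ribosome formation in the nucleolus, went from 22.7 and 19.9 to 3.28 and 3.07 TPM (-2.70 ± 0.10, limma, adjusted p = 2.66e-10). Rbm34 went from 20.4 and 20.2 to 3.50 and 3.48 TPM (-2.51 ± 0.17, limma, adjusted p = 4.42e-08). Both were lower after centring as well (-1.38 and -1.18). Rbm28, another nucleolar protein, differed by -1.06 as deposited and by 0.27 when centred.

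The 4 members that rose did so on either scale. Rbm12b2 went from 7.40 and 7.13 to 20.4 and 21.0 TPM (1.501 ± 0.18, limma, adjusted p = 9.34e-06), and Rbm12b1 from 7.63 and 7.02 to 15.7 and 16.6 TPM (1.13 ± 0.14, limma, adjusted p = 1.61e-05). Rbm4, an RNA binding protein that regulates splicing and translation, went from 5.47 and 5.74 to 14.6 and 15.2 TPM (1.39 ± 0.10, limma, adjusted p = 1.32e-07). Rbm15, which brings the methyltransferase complex to its RNA targets, went from 13.9 and 13.1 to 20.8 and 20.8 TPM (0.62 ± 0.13, limma, adjusted p = 0.00128). In all 4 genes both PladB libraries lay above both DMSO libraries. Rbm12b1 and Rbm12b2, and Rbm4 and Rbm4b, are close paralogs, so reads may have been divided unevenly within each pair. Rbm4b was at 7.95 and 8.03 TPM with DMSO and 5.40 and 5.85 with PladB and did not pass the test as deposited (-0.50), but was called higher when centred (0.83, limma, adjusted p = 0.00233).

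The partners of these roles were mostly lower as deposited, 14 of 17 with a median of -1.67, where 49.5% of all genes were lower. Centred, 9 were lower (24.1% of all genes) and 5 higher (52.7%) with a median of -0.34, and 5 of the 14 had a positive difference. Casc3, an exon junction protein, went from 32.0 and 30.9 to 1.499 and 2.00 TPM (-4.11), and the methyltransferase genes Mettl14, Mettl3 and Zc3h13 differed by -3.50, -2.83 and -2.82, and all 4 were lower when centred (-2.78, -2.17, -1.50 and -1.50).

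**Figure D2:**
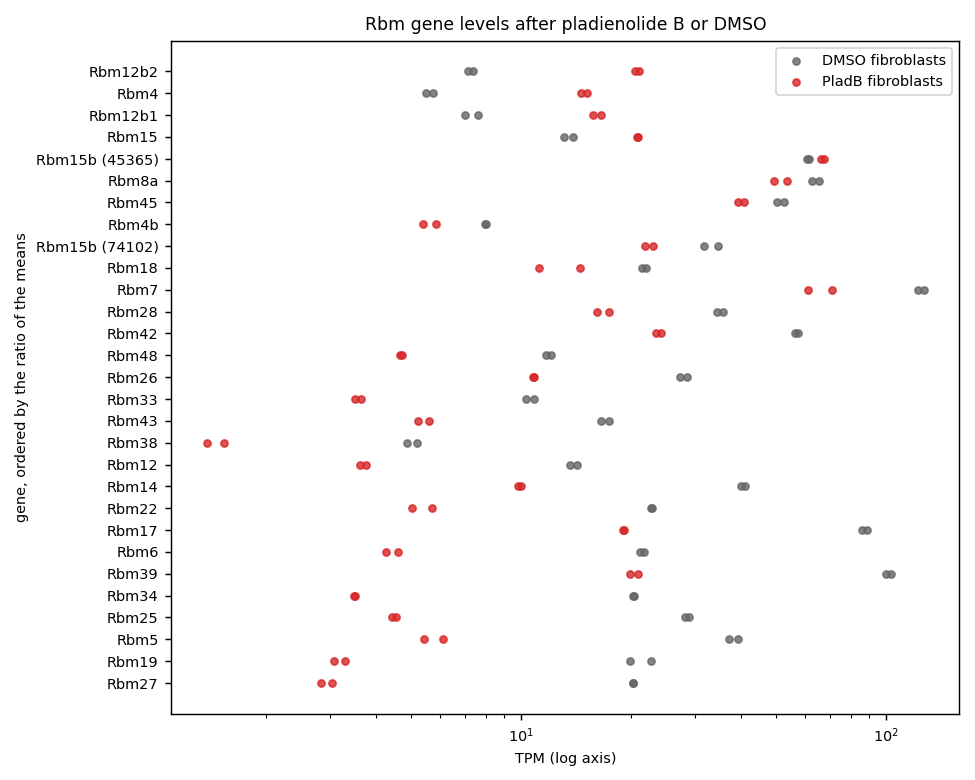
TPM on a log axis in each of the 4 fibroblast libraries (DMSO grey, PladB red) for the 29 Rbm gene identifiers above the level of the restricted genes Rbm11, Rbm24, Rbm44, Rbm46 and Rbm47, ordered by the ratio of the means. Rbm12b2, Rbm4, Rbm12b1 and Rbm15 lie to the right with PladB, and Rbm27, at the bottom, goes from 20.3 to about 2.83 and 3.02 TPM.

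Inclusion of Rbm exons was steady over the tissues in most events. Of the 88 tested events (73 exons, 21 genes), 54 had a PSI above 0.9 in every library, 5 below 0.1 in every library, and 67 had a switch score, the largest difference in mean PSI between 2 tissues, below 0.1. No event could be tested in Rbm12, Rbm12b1, Rbm12b2, Rbm14, Rbm15, Rbm15b, Rbm22, Rbm24, Rbm42, Rbm44, Rbm46 and Rbm4b. With a quasi-binomial logistic model and a switch score of at least 0.2, 12 events (13.6%) of 11 exons in 8 genes differed among tissues, against 9.73% of all events. No tested Rbm exon was 30 nt or shorter. The length was a multiple of 3 in 2 of the 11 called Rbm exons (18.2%), in 34.2% of all Rbm exons tested, in 60.8% of all called exons and in 42.2% of all exons tested, given as a description.

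The exon with the largest switch score, 0.72, was a 72-nt exon of the exosome adaptor Rbm26 (mm10, chr14:105139091-105139162, minus strand). Its PSI was 0.982 and 0.992 in cortex, 0.925 and 0.945 in heart, 0.839 and 0.806 in lung, 0.491 and 0.583 in spleen, 0.465 and 0.382 in kidney, 0.435 and 0.430 in liver and 0.180 and 0.344 in ESC. Cortex and heart lay above all other tissues and both ESC clones below every organ (F test, adjusted p = 3.51e-10).

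The 682-nt exon of Rbm4 (chr19:4787361-4788042, minus strand) had the second largest score, 0.59. Its PSI was 0.967 and 0.825 in ESC, 0.866 and 0.819 in lung, 0.823 and 0.813 in kidney, 0.704 and 0.733 in spleen, 0.731 and 0.752 in liver, 0.514 and 0.515 in cortex and 0.325 and 0.278 in heart. Heart lay lowest and cortex next, with no overlap with other tissues (F test, adjusted p = 1.22e-08).

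The 120-nt exon of Rbm33, a protein that takes part in mRNA export (chr5:28342395-28342514, plus strand), had a score of 0.41. Its PSI was highest in cortex (0.974 and 0.958), then in heart (0.876 and 0.815) and ESC (0.788 and 0.816), and was 0.672 and 0.611 in kidney, 0.686 and 0.670 in lung, 0.687 and 0.606 in liver and 0.548 and 0.561 in spleen. Cortex stood above and spleen below all other libraries (F test, adjusted p = 2.66e-09). With another flanking exon, which heart, spleen and ESC allowed to be measured, its PSI was 0.953 or higher and the event was not called (score 0.02).

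Each of the 2 Rbm39 exons that differed was called with 1 pair of flanking exons. The 73-nt exon (chr2:156178880-156178952, minus strand), between flanks ending at 156177385 and starting at 156179177, had a PSI of 0.458 and 0.352 in ESC, 0.287 and 0.297 in spleen, 0.239 and 0.267 in lung, 0.199 and 0.190 in cortex, 0.155 and 0.147 in kidney, 0.143 and 0.130 in liver and 0.0818 and 0.120 in heart. ESC lay above all organs (score 0.30, F test, adjusted p = 1.50e-09). In 2 other tested events of this exon, with other flanks, PSI was 0.886 or higher in every library measured and neither was called (scores 0.09 and 0.01). The 55-nt exon (chr2:156176403-156176457) was lowest in liver, at 0.0117 and 0.0965, and highest in spleen, at 0.308 and 0.337, with all other libraries from 0.130 to 0.289 (score 0.27, F test, adjusted p = 0.0153). Its call was lost without liver replicate 1 (adjusted p = 0.0637 by the same F test) without spleen replicate 2 (0.0808) and with the replicate number as a block (0.0715). A better covered event of the same exon, with another flank, had a PSI of at most 0.0281 in every library and was not called (score 0.02).

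In Rbm25, 4 events of 3 overlapping or neighbouring exons were called. The 64-nt exon (chr12:83639128-83639191, plus strand) with the more distant downstream exon had a PSI of 0.0353 and 0.0291 in cortex, 0.0954 and 0.197 in ESC, 0.135 and 0.128 in heart, 0.205 and 0.210 in kidney, 0.228 and 0.214 in lung, 0.1996 and 0.188 in spleen and 0.311 and 0.316 in liver. Cortex was lowest and liver highest without overlap (score 0.28, F test, adjusted p = 1.35e-05). With the nearer downstream exon, an event with fewer reads, the 64-nt exon was also called (score 0.36, F test, adjusted p = 0.0180). There its PSI was 0.950 and 0.833 in liver, 0.610 and 0.559 in cortex (31 and 20 reads) and 0.569 and 0.495 in kidney, so that cortex was not lowest. A longer form with the same start, 248 nt (chr12:83639128-83639375), ran from 0.382 and 0.449 in kidney to 0.920 and 0.739 in liver, where it rested on 24 and 40 reads, and had under 20 reads in cortex (score 0.41, F test, adjusted p = 0.0293). That call was lost with a minimum of 50 reads, which left out liver, and without kidney replicate 2, spleen replicate 2 or liver replicate 1 (adjusted p = 0.0611 to 0.0730).

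Rbm11, Rbm6 and Rbm47 had events in fewer tissues. The 73-nt exon of Rbm11 (chr16:75598170-75598242, plus strand) had a PSI of 0.974 and 0.883 in cortex (224 and 252 reads), 0.935 and 1.000 in ESC (29 and 24 reads) and 0.510 and 0.561 in kidney (79 and 84 reads), where Rbm11 was at 2.16 and 2.23 TPM (score 0.43, F test, adjusted p = 0.00143). That call was lost with the replicate number as a block (adjusted p = 0.0750 by the same F test). The 74-nt exon of Rbm6 (chr9:107833434-107833507, minus strand), a paralog and neighbour of Rbm5, was at 0.631 and 0.613 in ESC and between 0.843 and 0.995 in cortex, heart, kidney and lung (score 0.32, F test, adjusted p = 1.37e-05), and the event with these flanking exons was not listed for spleen or liver. A better covered event of this exon, with another flank, was measured in all 7 tissues, had a PSI of 0.887 and 0.921 in ESC and 0.928 to 0.983 elsewhere, and was not called (score 0.07). The 133-nt exon of Rbm47 (chr5:66151053-66151185, minus strand) was at 0.389 and 0.359 in kidney, 0.561 and 0.280 in liver, 0.175 and 0.0943 in lung, 0.0864 and 0.194 in spleen and 0.176 and 0.0526 in ESC. The kidney and liver libraries lay above the others (score 0.31, F test, adjusted p = 0.0292), on 32 to 89 reads, and the call was lost without either kidney library, lung replicate 2 or liver replicate 1 (adjusted p = 0.0547 to 0.0737) and with the replicate number as a block (0.159).

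**Figure D3:**
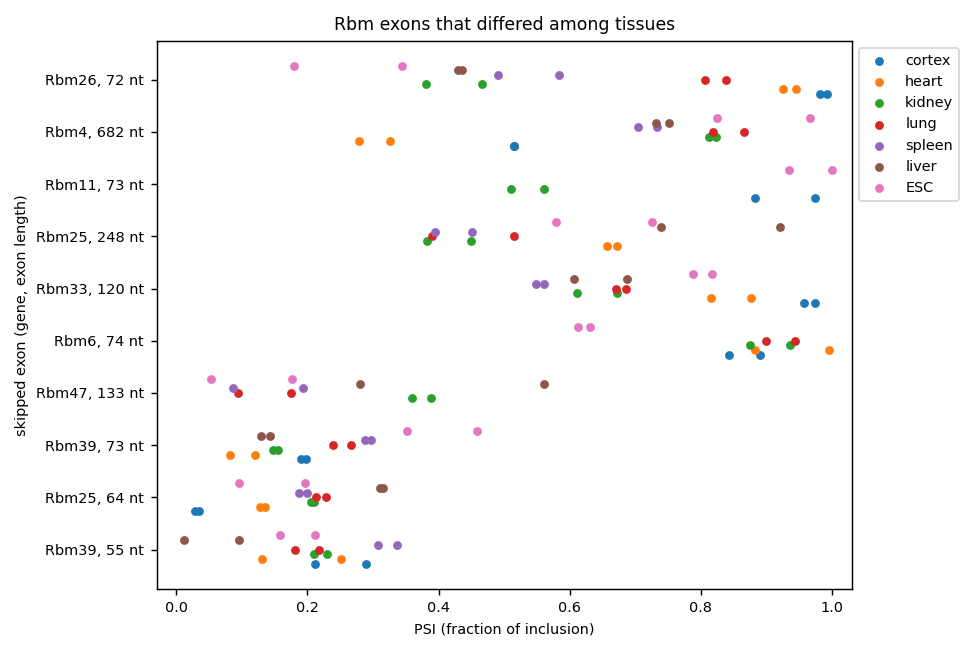
PSI (horizontal, 0 to 1) of the 10 called Rbm exons with the largest switch scores, named by gene and exon length, with 1 point per library coloured by tissue. The 72-nt exon of Rbm26 runs from 0.180 in ESC to 0.992 in cortex, and tissues with under 20 reads have no points.

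Between the alleles of one tissue, Rbm exons rarely differed. With at least 20 reads on each allele, a difference in mean PSI (C57BL/6J minus SPRET/EiJ) of at least 0.1 and an adjusted p below 0.05, no event was called in cortex (of 17 tested, with 8.93% of all events called), heart (of 19, 6.56%), liver (of 11, 5.98%) or ESC (of 30, 1.3%), and 1 was called in each of kidney (of 23, 8.12%), lung (of 21, 7.61%) and spleen (of 29, 5.77%). At an unadjusted p below 0.05 the counts were 9 in spleen, 6 in kidney, 5 in cortex, 4 in lung, 3 in ESC and 0 in both heart and liver. No share of all events at that threshold is given beside these counts, so they are a description only.

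The kidney and lung calls were the same 124-nt exon of Rbm43 (chr2:51932400-51932523, minus strand). In lung its PSI was 0.785 and 0.798 on the C57BL/6J allele and 0.977 and 1.000 on the SPRET/EiJ allele (difference -0.20, F test, adjusted p = 0.0154), and in kidney 0.753 and 0.9 against 1.000 and 1.000 (-0.17, adjusted p = 0.0430). In both tissues the C57BL/6J values lay below the SPRET/EiJ values. In spleen the alleles differed by -0.03, and in DMSO fibroblasts by -0.12 (adjusted p = 0.0505). Whether the allelic difference itself differed between tissues was not tested.

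In spleen, the 60-nt exon of Rbm34 (chr8:126961912-126961971, minus strand) had a PSI of 0.641 and 0.541 on the C57BL/6J allele against 0.801 and 0.852 on the SPRET/EiJ allele (-0.24, F test, adjusted p = 0.0458). The same exon differed by -0.14 in ESC, -0.12 in heart, -0.11 in lung and -0.08 in cortex, and by 0.01 in kidney, 0.06 in liver and 0.06 in DMSO fibroblasts, none of them called.

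In fibroblasts, the DMSO libraries gave no call among 27 events (7.89% of all events called, and 5 members at an unadjusted p below 0.05, a description only), and the PladB libraries gave 5 among 32 (7.37% of all). The largest was the 91-nt exon of Rbm7 (chr9:48490848-48490938, minus strand), with a PSI of 0.379 and 0.412 on the C57BL/6J allele and 0.772 and 0.810 on the SPRET/EiJ allele (-0.40, F test, adjusted p = 0.00252). The 88-nt exon between the same flanking exons of Rbm7 (chr9:48493407-48493494) had 0.654 and 0.642 against 0.851 and 0.887 (-0.22, adjusted p = 0.00850). Both events share their flanking exons and are not independent. Neither was among the events tested with DMSO.

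The other calls with PladB were smaller or rested on few reads. The 80-nt exon of Rbm43 (chr2:51926681-51926760) had a PSI of 0.785 and 0.495 on the C57BL/6J allele, on 33 and 35 reads, against 0.969 and 1.000 (-0.34, F test, adjusted p = 0.0193). The 64-nt exon of Rbm25 described above, with the more distant downstream exon, had 0.0372 and 0.0601 against 0.153 and 0.223 (-0.14, F test, adjusted p = 0.0331). With DMSO the same event differed by -0.07 (F test, adjusted p = 0.0329), below the size limit of 0.1. It differed by -0.18 in spleen, -0.15 in ESC, -0.06 in kidney, -0.04 in lung and -0.02 in heart, none of them called. The 132-nt exon of Rbm26 (chr14:105140316-105140447), next to its 72-nt exon, was the call in the other direction, with 1.000 and 0.990 on the C57BL/6J allele and 0.929 and 0.816 on the SPRET/EiJ allele (0.12, F test, adjusted p = 0.0499). Of these events, only that of Rbm25 was also tested between alleles in the DMSO libraries alone.

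The alleles of a library share its RNA, and with the library as a block none of these 8 calls passed the adjusted threshold. At an unadjusted p below 0.05 (F test), 11 of 150 Rbm events in tissues and 7 of 59 in fibroblasts passed. No share of all events at that threshold is given, so both counts are a description only. The blocked adjusted p (F test) was 0.285 for all 5 calls in PladB fibroblasts, 0.250 and 0.299 for Rbm43 in kidney and lung and 0.305 for Rbm34 in spleen, in a fit with 1 residual degree of freedom, which called 4 of 53290 events in tissues and 0 of 19476 in fibroblasts. With a dispersion prior taken only from events with enough reads of both forms, the blocked fit called 69 and 684 of these events. No Rbm event was among them. In a test of the allele by treatment term, none of 19 Rbm events was called (6 of 9451 events, 0.0635%, were). Neither Rbm7 exon and not the 132-nt exon of Rbm26 was among the 19, so a treatment effect on their allelic differences was not tested. At an unadjusted p below 0.05, 2 of the 19 passed, as did 717 of the 9451. The smallest adjusted p was 0.189, for the 80-nt exon of Rbm43, whose allelic difference was 0.02 with DMSO and -0.34 with PladB.

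**Figure D4:**
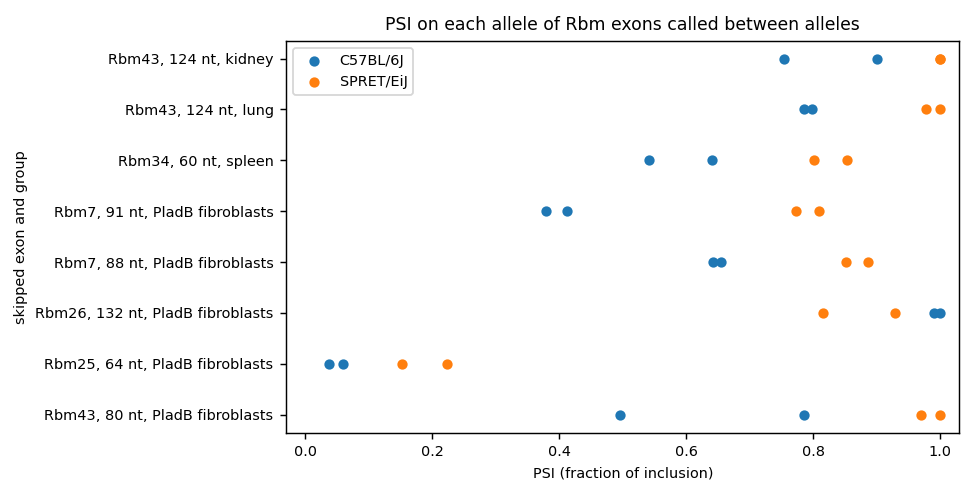
PSI (horizontal, 0 to 1) on the C57BL/6J allele (blue) and the SPRET/EiJ allele (orange) for the 8 pairs of an Rbm exon and a group that were called without a block, with 1 point per library. The SPRET/EiJ points lie to the right in all pairs except the 132-nt exon of Rbm26; none was called with the library as a block.

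Inclusion of Rbm exons was lower after PladB. Of 79 tested events (66 exons, 18 genes), 34 were lower by at least 0.1 with an adjusted p below 0.05 (43.0%, 27 exons in 8 genes) and none was called higher, where 18.8% of all events were lower and 0.466% higher. A further 4 Rbm events passed the test with a positive difference under 0.1, and the largest of them was the 73-nt exon of Rbm39, which went from 0.167 and 0.157 with DMSO to 0.260 and 0.258 with PladB (0.10, F test, adjusted p = 0.00469). The median difference was -0.08 over the Rbm events and -0.01 over all events. Of the 60 Rbm events with a PSI of at least 0.9 with DMSO, 30 were called lower, against 3596 of 17743 such events over all genes. By gene, the calls were 8 of 9 events in Rbm5, 7 of 7 in Rbm18, 6 of 6 in Rbm33, 4 of 6 in Rbm27, 3 of 4 in Rbm7, 3 of 14 in Rbm39, 2 of 5 in Rbm26, 1 of 1 in Rbm4 and 0 of 8 in Rbm25. Events of a gene that share exons are not independent.

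Exons with several called events are described by the event with the most reads, and 5 of the 8 exons ranked highest on that basis are in Rbm5. The 85-nt exon (chr9:107750008-107750092, minus strand) had a PSI of 0.973 and 0.969 with DMSO and 0.124 and 0.294 with PladB (-0.76, F test, adjusted p = 0.000827). In the event that joins it to the exon beyond its 86-nt neighbour, PSI went from 1.000 and 0.993 to 0.0758 and 0.105 (-0.91). The 86-nt exon next to it (chr9:107750463-107750548) went from 1.000 and 0.996 to 0.429 and 0.533 (-0.52, adjusted p = 0.000906), and the 61-nt exon (chr9:107755853-107755913) from 0.991 and 0.998 to 0.570 and 0.435 (-0.49, adjusted p = 0.00220). In all of them the PladB libraries lay far below the DMSO libraries.

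The 74-nt and 70-nt exons of Rbm5 moved the same way with a wider spread. The 74-nt exon (chr9:107759776-107759849) went from 0.898 and 0.925 to 0.442 and 0.0814, on 24 and 60 reads with PladB (-0.65, F test, adjusted p = 0.00590). The 70-nt exon (chr9:107760322-107760391) went from 1.000 and 1.000 to 0.320 and 0.726 (-0.48, adjusted p = 0.00553). As Rbm5 itself fell to 5.40 and 6.12 TPM, few reads covered these junctions after PladB.

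Rbm18 had 2 nested exons of this kind. The 71-nt form (chr2:36127181-36127251, minus strand) went from 0.927 and 0.925 to 0.179 and 0.160 (-0.76, F test, adjusted p = 0.000426), and the 127-nt form (chr2:36127125-36127251) from 0.980 and 0.978 to 0.371 and 0.393 (-0.60, adjusted p = 0.000394). The replicates lay within 0.03 of each other in both conditions, on 136 to 314 reads with PladB.

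The 72-nt exon of Rbm26, which varied most among tissues, also fell with PladB, from 0.876 and 0.8999 to 0.457 and 0.392 (-0.46, F test, adjusted p = 0.000826). The 682-nt exon of Rbm4 and the 120-nt exon of Rbm33, likewise among the tissue exons above, were called lower (-0.42 and -0.43). The 79-nt exon of Rbm33 (chr5:28331111-28331189) fell by 0.30 in its best covered event and by 0.50 in another. In Rbm25, by contrast, the 64-nt exon with the more distant downstream exon had a PSI of 0.123 and 0.141 with DMSO and 0.155 and 0.168 with PladB and was not called.

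These SE calls depended on how the spread between replicates was estimated. Without PladB replicate 1 or 2, none of the Rbm events and none of all events was called (33 of 66 and 27 of 60 Rbm events passed an unadjusted p below 0.05 by the same F test), and without DMSO replicate 1 or 2 there were 24 and 21 Rbm calls. With a dispersion prior taken only from events with enough reads of both forms, 35 of 79 Rbm events were called in the fit to all libraries. Over all genes, 4368 of 21472 events were. That setting was chosen after the first fit had been seen.

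**Figure D5:**
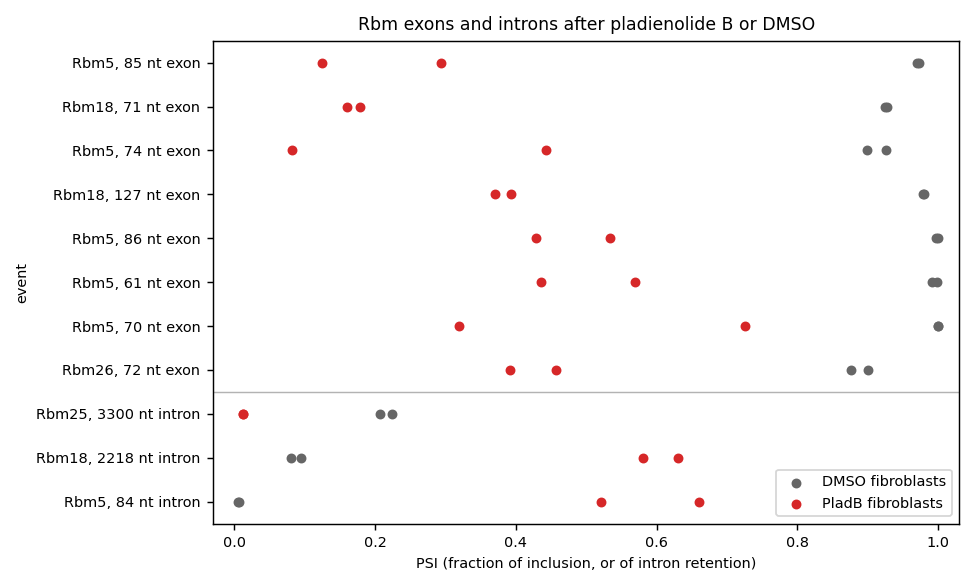
PSI (horizontal, 0 to 1) of the 8 Rbm exons with the largest called falls, taking the called event with the most reads for each exon, and of the 3 tested retained introns (below the line) in each DMSO (grey) and PladB (red) fibroblast library, named by gene and length. All 8 exons and the Rbm25 intron lie to the left with PladB, and the introns of Rbm18 and Rbm5 to the right.

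All 3 tested Rbm introns changed, 2 toward retention and 1 toward removal, where 38% of all introns were higher and 3.25% lower. The 84-nt intron of Rbm5 (chr9:107751792-107751875, minus strand) had a retained fraction of 0.00745 and 0.00498 with DMSO and 0.661 and 0.520 with PladB (0.58, F test, adjusted p = 1.50e-08). The 2218-nt intron of Rbm18 (chr2:36134264-36136481, minus strand) went from 0.0947 and 0.0810 to 0.580 and 0.631 (0.52, adjusted p = 4.71e-09). In both, retention was low in each DMSO library and exceeded 0.5 in each PladB library.

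The 3300-nt intron of Rbm25 (chr12:83660679-83663978, plus strand) went the other way, from 0.224 and 0.208 with DMSO to 0.0122 and 0.0124 with PladB (-0.20, F test, adjusted p = 4.77e-07). A second intron of Rbm5 (chr9:107756993-107760321), which spans the 74-nt skipped exon, had too few reads for the test. Its listed fraction, against the junction that skips that exon, was 0.725 and 0.783 with DMSO, and 0.0833 and 0.0940 with PladB, on 13 and 64 reads. Reads spliced through the 74-nt exon are left out of it, so it is not the share of all transcripts that kept the intron. With DMSO, the skipped exon event between the same flanks had 1686 and 1648 reads at a PSI of 0.898 and 0.925. Without PladB replicate 1, which was below 20 reads there, this intron entered the test and all 4 Rbm introns were called, with 1 PladB library and the spread taken from the DMSO pair and from other introns.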

How the data were processed

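Polyadenylated RNA was sequenced in 18 strand-specific libraries, 2 per group. Per the study's methods, the authors aligned reads with HISAT2 2.0.1 to mm10, gave each read to the parental genome with the smaller edit distance, listed splicing events with rMATS at default parameters on Ensembl annotation, and counted fragments per gene with featureCounts, dividing those that overlap several genes. The deposited TPM values were made from these counts by the authors. The deposited splicing tables hold junction read counts of the inclusion and skipping form, as a list of both replicates in each cell, with the effective length of each form, and their columns of p, adjusted p and inclusion difference were not used.

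PSI was recomputed as the length-scaled share of inclusion reads, with at least 20 reads in each library compared. Events with at least 10 reads of the minor form were tested by a quasi-binomial logistic F test whose dispersions were moderated with limma 3.58.1 (R 4.3.3) along depth, with a floor of 1, and p-values were adjusted by Benjamini-Hochberg over all autosomal events. Allelic events also had to have a PSI within 0.1 of that from all reads. TPM were tested with limma on log2(TPM + 0.1) over genes with a mean of at least 0.5 TPM, with 1 spread over all 18 libraries. Python 3.11.15, numpy 2.4.6, pandas 2.3.3 and scipy 1.17.1 were used. All tests are two-sided or F tests, and all scripts were tested on simulated data.

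The members and gene lists were chosen with earlier results of these data known. The text names the 10 called exons with the largest switch score, all allelic calls, the 8 called exons with the largest PladB difference (each exon by its called event with the most reads), all introns tested, the 2 called genes with the largest TPM differences per tissue and direction, the 5 per direction for PladB, and at most 4 partners. Other members named were picked after their values were seen. Of the moderation, 2 forms were fitted to the data and their counts seen before the form was chosen by a rule on simulated data out of 3. None of them kept false calls at the level aimed for in every design, and they ran above it in the allelic design, and the form with the lowest worst case was kept.

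Organs came from the same 2 animals, but no label ties a replicate number to an animal. The correlation of deviations from the group means was -0.102 to 0.305 in TPM, above 0.1 in 7 of 21 pairs of tissues, all between organs, -0.081 to 0.071 in PSI, and -0.137 between the fibroblast groups in TPM. For comparisons between groups, the replicate block was therefore kept as an alternative. Cortex, heart and kidney were sequenced with longer reads than lung, spleen and ESC. Per the study's methods, the authors trimmed the longer reads before alignment, so that all samples had reads of the same length. Any effect left from the sequencing format cannot be told apart from these tissues. Alleles of a library are paired. Their deviations in PSI correlated with r of 0.097 to 0.489 in tissues, above 0.1 in 6 of 7, and 0.034 to 0.055 in fibroblasts. The allelic calls come from the fit without a block. The order of the groups in the table of introns is that of its name, and in the SE table it was checked against the allelic reads, which are part of its reads. Rbm23 was not analysed here. Coordinates of exons are those of the deposited tables, and chromosomes of genes come from RefSeq (GRCm38.p6) by symbol. The overlap of Rbm12 with Cpne1 and the 2 identifiers of Rbm15b leave the levels of those genes uncertain.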

Additional observations from a re-analysis of the deposited data

Results flagged for a closer look

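The 60-nt exon of Rbm34 stood out because its allelic difference had opposite signs in different groups. In DMSO fibroblasts both libraries had a higher PSI on the C57BL/6J allele (0.945 and 0.870) than on the SPRET/EiJ allele (0.856 and 0.847), a difference of 0.0560 (limma-moderated F test, adjusted p = 0.280). In spleen and ESC both libraries had the lower value on the C57BL/6J allele (-0.24 and -0.14). The difference between these groups was not tested.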

How the results depend on the processing

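Each alternative is given as the number of Rbm calls, against the value of the main setting. For TPM among tissues (103 calls over 7 contrasts) there were 53 with centring and 79 with a pseudocount of 1, and leaving out 1 library moved the count by at most 4. For TPM with PladB (28) there were 30 with centring or with fibroblasts alone, and 25 to 29 without 1 library. For SE among tissues (12) there were 16 with a switch score of at least 0.1, 8 with the replicate block, and 8 (liver replicate 1) to 14 without 1 library. For SE with PladB (34) there were 26 with at least 50 reads and 27 with a limit of 0.2. There were 0 with the replicate block, a fit that also called 0 of all 21472 events. At an unadjusted p below 0.05 (F test), 52 of 79 Rbm events passed it, a description only, since no share of all events is given. Without 1 library this count ran from 0 (either PladB library) over 21 (DMSO replicate 2) to 24 (DMSO replicate 1), and the cause was not tested. The 3 retained introns stayed called, with 4 called without PladB replicate 1 (3 to 4). The allele by treatment term gave 0 calls in every setting (0 to 3 events at an unadjusted p below 0.05).

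For alleles in tissues (3) there was 1 call without the depth trend, 1 with a limit of 0.2 and 0 with the replicate block. For alleles in fibroblasts (5) there were 3 with a limit of 0.2 and 0 with the replicate block. With 1 library there is no spread to test, and 2 and 3 of the calls in tissues and 5 and 4 of those in fibroblasts had the same sign and at least 0.1 in 1 replicate alone, the replicates that also made the calls.

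The prior from informative events, chosen after seeing the data, gave 8 calls for SE among tissues (3005 of 35134 over all events). For SE with PladB it gave 35 (4368 of 21472), and 35 with the replicate block (4223 of 21472). For alleles it gave 4 in tissues (3351 of 53290) and 8 in fibroblasts (1778 of 19476). With the replicate block both fell to 0, where 69 of 53290 events in tissues and 684 of 19476 in fibroblasts were called. Of 1172 alternatives over the 64 named results, 1096 kept the call and direction, 76 lost the call (72 of them SE) and 0 reversed. Depth limits the SE values of Rbm genes after PladB, where they had 43432 and 52948 reads. A planned quasi-likelihood count test of inclusion and skipping reads was not run.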
